A study of Rattus norvegicus with 12 samples.

Results

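The genes described here encode secreted ligands of the vessel wall: the vascular endothelial growth factors and their placental relative (Vegfa, Vegfb, Vegfc, Vegfd, Pgf), the angiopoietins (Angpt1, Angpt2), the peptides apelin and adrenomedullin (Apln, Adm) and the endothelial proteoglycan endocan (Esm1). They were chosen by name, and 8 of the 10 were among the 17268 genes of the count table. Vegfd and Apln were not analysed here. The RNA came from the cerebral cortex of adult male Sprague Dawley rats in 4 groups of 3 libraries, each labelled as a separate sample. In the Sham group the carotid arteries were exposed without placing a clot. In the Model group a clot was injected to block the middle cerebral artery and no treatment followed. In the rt-PA group recombinant tissue plasminogen activator, a clot-dissolving drug, was given after the same clot at 10 mg/kg through the tail vein at 6 h. The rt-PA+Acu group received the clot, the same drug at 6 h and XNKQ acupuncture at 2 h at the points GV26 and PC6, which the series text places on the left only and the methods on both sides. No group had acupuncture without rt-PA, and the time of tissue collection and the hemisphere of the sequenced cortex are not given in the sources used here.

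Vegfa is the main VEGF for endothelial growth and permeability and acts through the receptor Kdr. Angpt1, made mostly by cells around the endothelium, keeps vessels quiet through the receptor Tek, while Angpt2 is released by activated endothelium and often opposes Angpt1 at the same receptor. Adrenomedullin widens vessels and steadies their barrier, and Esm1 is secreted by endothelial cells that respond to VEGF. Several of these genes, Vegfa and Adm above all, are well known targets of the hypoxia-inducible factors (HIFs).

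Library totals lay between 11678450 and 13616935 counts, so 3 counts in a library corresponded to 0.208 to 0.262 CPM (a gene's counts relative to the library total, scaled to the usual unit). CPM values below were scaled with TMM factors over all 12 libraries and are compared only within a gene, since gene lengths were not used. Markers of cortical neurons were abundant in every library, with summed levels of 3730 to 6630 CPM. Some libraries stood apart in their mixture. Summed markers of striatal neurons were 368 CPM in Sham 1 against 780 and 967 CPM in the other Sham libraries, and 155 to 289 CPM in all other groups. Oligodendrocyte markers summed to 12000 to 17900 CPM in the Sham libraries and to 1670 to 21100 CPM in the others, and spread widely within each group with a clot. In the Model group, Model 3 had summed endothelial markers of 380 CPM against 196 and 211 CPM in the other libraries. In the rt-PA group, rt-PA 1 had summed neutrophil and monocyte markers of 411 CPM against 135 and 160 CPM. In a bulk library, fewer cells of a type and less RNA per cell cannot be told apart.

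The promoters of the ligands with measured RNA are shown because the HIF pathway is described beside them. The 250 bases before the start of the gene were taken from RefSeq, build GRCr8, which is not the build the counts were made on. Entries were found for 6 of the 8 measured ligands, and none for Angpt1 and Angpt2. Capitals mark the HIF core, searched as ACGTG or GCGTG on both strands, which 36.7% of all 33465 promoters of this length held. Esm1, on the plus strand at chr2:46609003-46609252, held it 172 and 83 bases before the start. Vegfb, on the minus strand at chr1:213607153-213607402, held it 68 bases before the start. Adm, on the plus strand at chr1:174179950-174180199, and Vegfa, on the plus strand at chr9:22452604-22452853, held none in this window.
Esm1: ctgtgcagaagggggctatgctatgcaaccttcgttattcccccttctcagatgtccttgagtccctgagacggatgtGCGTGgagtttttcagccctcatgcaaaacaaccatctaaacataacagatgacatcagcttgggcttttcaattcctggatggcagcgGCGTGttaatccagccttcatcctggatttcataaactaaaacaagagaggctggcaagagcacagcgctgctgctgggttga
Vegfb: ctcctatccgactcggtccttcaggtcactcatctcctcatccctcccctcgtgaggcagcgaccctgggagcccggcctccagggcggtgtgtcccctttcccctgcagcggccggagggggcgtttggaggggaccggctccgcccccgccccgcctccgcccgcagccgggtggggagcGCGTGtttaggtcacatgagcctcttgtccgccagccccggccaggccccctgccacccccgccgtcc
Adm: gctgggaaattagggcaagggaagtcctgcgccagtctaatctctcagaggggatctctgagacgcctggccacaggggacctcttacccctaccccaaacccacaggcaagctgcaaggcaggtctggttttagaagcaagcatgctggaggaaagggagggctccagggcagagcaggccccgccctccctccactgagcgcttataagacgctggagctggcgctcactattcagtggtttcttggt
Vegfa: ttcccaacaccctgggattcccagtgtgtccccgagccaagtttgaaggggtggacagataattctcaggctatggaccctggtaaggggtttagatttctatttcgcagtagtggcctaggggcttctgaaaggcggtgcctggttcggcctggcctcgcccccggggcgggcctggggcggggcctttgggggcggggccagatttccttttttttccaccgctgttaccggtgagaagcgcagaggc
Pgf held 1 core, 154 bases before its start, and Vegfc none. The GC box, searched as GGGCGG on both strands, was found 4 times for Vegfb, 3 times for Vegfa, 2 times for Pgf and for Vegfc, 1 time for Adm and not for Esm1, against 30.5% of all promoters with at least 1. A match describes letters only, and the absence of one says nothing about a factor, since known control regions of these genes can lie outside the window.

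In the untreated Model cortex, Angpt2 and Adm rose and Angpt1 and Vegfb fell against Sham. After rt-PA alone no ligand passed the test against Model. With acupuncture added to rt-PA, Angpt2 and Esm1 fell against rt-PA alone. Angpt2 fell 10.3-fold. The mean of Esm1 fell at least 22.1-fold, a limit that was 13-fold without rt-PA 1. Esm1 passed the filter for that test only through its counts in rt-PA. Against Sham, no ligand passed the test in rt-PA+Acu. A gene was counted as differentially expressed (DEG) when edgeR's quasi-likelihood test gave a Benjamini-Hochberg (BH) adjusted p under 0.05 and the change was over 1 on the log2 scale in either direction.

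For Model vs Sham, 4 of the 6 ligands tested were DEGs, 2 higher and 2 lower, against 21.5% of all 12884 genes tested (9.43% higher and 12% lower). The libraries of the groups lay apart for 5 of these 6 ligands, and for 63.6% of all genes tested. For rt-PA vs Model, 0 of 8 ligands were DEGs by edgeR and 0 by DESeq2. An unadjusted p under 0.05 was found for 3 ligands and for 1284 of all 12941 genes. Of all 12941 genes, 0% were DEGs in that comparison by edgeR, while DESeq2 gave 72 DEGs over all genes. The paper, with DESeq2 and the same thresholds, reports more DEGs than this for its rt-PA group. The libraries lay apart for 2 of 8 ligands and for 15.9% of all genes. For rt-PA+Acu vs rt-PA, 2 of 8 ligands were DEGs, both lower, against 15.3% of 12999 genes in either direction and 8.16% lower. The libraries lay apart for 5 of these 8 ligands and for 51.1% of all genes. For rt-PA+Acu vs Sham, 0 of 7 ligands were DEGs by edgeR and 0 by DESeq2. An unadjusted p under 0.05 was found for 2 ligands and for 2964 of all 12775 genes. Of 12775 genes, 2.06% were DEGs by edgeR, while DESeq2 gave 426 DEGs over all genes. The libraries lay apart for 2 of these 7 ligands and for 30.8% of all genes. The comparisons share groups of libraries, so their values are not independent of each other.

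**Figure D1:**
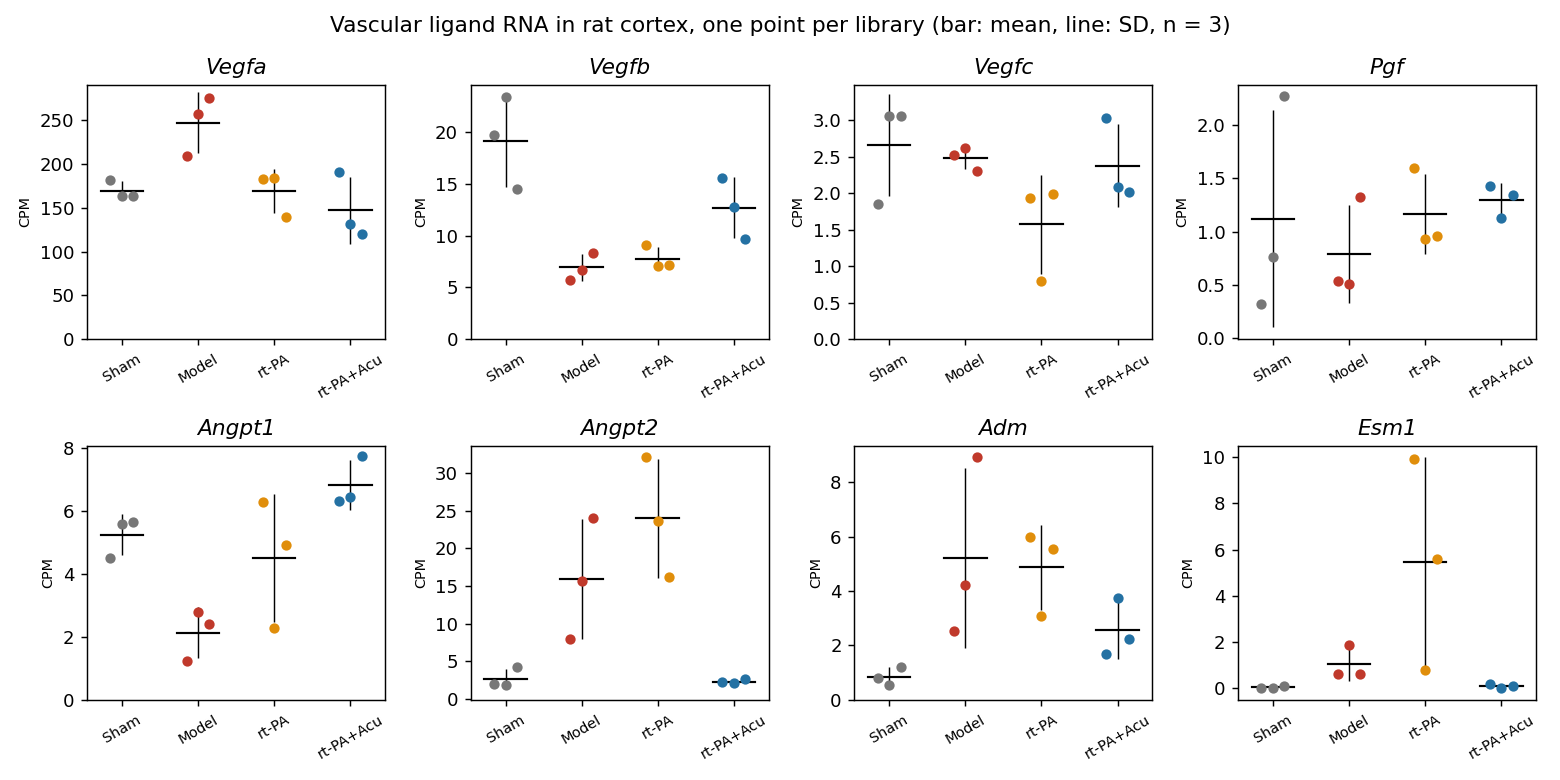
Level of each ligand in CPM (y axis, linear, its own range for each gene) in the 3 libraries of each group, with the mean as a bar and the SD as a line. Angpt2 sits at 8.02 to 32.1 CPM in the Model and rt-PA libraries and at 1.91 to 4.19 CPM in the Sham and rt-PA+Acu libraries.

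**Figure D2:**
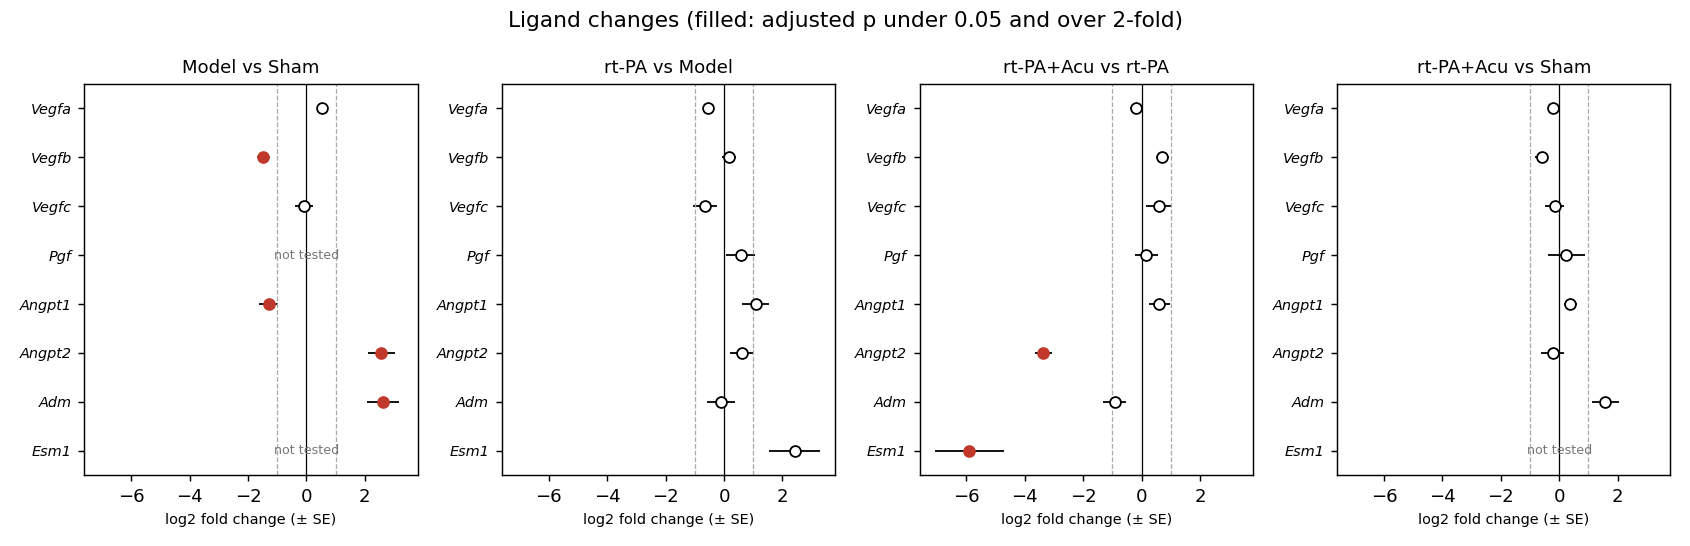
Log2 fold change of each ligand with its SE (x axis) in the 4 comparisons, with filled points for DEGs and dashed lines at a change of 1 in either direction. Angpt2 and Adm are on the right for Model vs Sham, and Angpt2 and Esm1 are on the left for rt-PA+Acu vs rt-PA.

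Among the VEGF ligands, Vegfa was higher in the Model cortex and Vegfb was lower. Vegfa was at 182, 164 and 163 CPM in the Sham libraries and at 209, 257 and 276 CPM in the Model libraries. All Model libraries were above all Sham libraries, and the rise of 1.46-fold passed the test (log2 fold change 0.55, SE 0.114, edgeR BH-adjusted p = 0.00409) without reaching the fold change of a DEG. In the rt-PA libraries Vegfa was at 183, 184 and 140 CPM, below every Model library. That difference did not pass (log2 fold change -0.55, unadjusted p = 0.00665, edgeR BH-adjusted p = 0.348). With acupuncture Vegfa was at 191, 131 and 120 CPM, which overlapped rt-PA and Sham (edgeR BH-adjusted p = 0.454 and 0.49).

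Vegfb encodes a VEGF that binds Flt1 and is tied to vessel survival and lipid uptake more than to sprouting. It was at 19.7, 23.4 and 14.5 CPM in the Sham libraries and at 5.73, 6.69 and 8.34 CPM in the Model libraries, which lay wholly below. The log2 fold change was -1.47 (SE 0.227, edgeR BH-adjusted p = 0.000946). The rt-PA libraries were at 9.09, 7.11 and 7.15 CPM and overlapped Model (edgeR BH-adjusted p = 0.848). The rt-PA+Acu libraries, at 15.6, 12.8 and 9.7 CPM, were all above the rt-PA libraries, with a log2 fold change of 0.70 (SE 0.224, edgeR BH-adjusted p = 0.0445) that was below the fold change of a DEG. It no longer passed when any library other than rt-PA+Acu 3 was left out (edgeR BH-adjusted p of 0.0597 to 0.147), with library size as the only scaling (0.0701) or with the replicate number as a block (0.0502). Against Sham the rt-PA+Acu libraries overlapped (log2 fold change -0.60, edgeR BH-adjusted p = 0.163).

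Vegfc, the ligand of the lymphatic receptor Flt4, and Pgf, the placental growth factor, were low. Vegfc was at 1.85, 3.06 and 3.06 CPM in Sham and at 2.52, 2.62 and 2.31 CPM in Model. It was at 1.94, 0.79 and 1.99 CPM in rt-PA, below every Model library, and at 3.03, 2.09 and 2.01 CPM in rt-PA+Acu, above every rt-PA library. None of its comparisons passed, with edgeR BH-adjusted p of 0.829 for Model vs Sham, 0.645 for rt-PA vs Model and 0.312 for rt-PA+Acu vs rt-PA. Pgf was at 0.322, 0.764 and 2.27 CPM in Sham, so that this group alone spanned every Pgf value of the other groups. It was too low to be tested for Model vs Sham, and rt-PA+Acu vs rt-PA gave an edgeR BH-adjusted p of 0.761.

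The angiopoietins moved in opposite directions in the Model cortex. Angpt1 was at 4.51, 5.58 and 5.67 CPM in Sham and at 1.22, 2.79 and 2.4 CPM in Model. The groups did not overlap, and Angpt1 fell (log2 fold change -1.29, SE 0.339, edgeR BH-adjusted p = 0.0121). Angpt2 was at 2.01, 1.91 and 4.19 CPM in Sham and at 8.02, 15.7 and 24 CPM in Model. It rose 5.91-fold (log2 fold change 2.56, SE 0.455, edgeR BH-adjusted p = 0.00189), with every Model library above every Sham library and the highest value in Model 3, the library with the most endothelial marker RNA of its group.

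After rt-PA alone Angpt1 was at 6.31, 2.3 and 4.94 CPM, a range that overlapped Model at its lower end. The log2 fold change against Model was 1.09 (SE 0.462, unadjusted p = 0.0479, edgeR BH-adjusted p = 0.501). Angpt2 was at 32.1, 23.6 and 16.2 CPM in rt-PA and overlapped Model (log2 fold change 0.60, edgeR BH-adjusted p = 0.675). With acupuncture added, Angpt2 was at 2.19, 2.09 and 2.61 CPM. All of these values lay below all rt-PA values, and Angpt2 fell (log2 fold change -3.37, SE 0.294, edgeR BH-adjusted p = 0.00104). They also lay within the range of the Sham libraries (log2 fold change -0.23, edgeR BH-adjusted p = 0.763). Angpt1 was at 6.32, 6.46 and 7.76 CPM in rt-PA+Acu, just above every rt-PA library and above every Sham library, but neither difference passed (edgeR BH-adjusted p = 0.229 and 0.318).

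The scaling of a library largely cancels in the ratio of Angpt2 to Angpt1 within it. The ratio was computed from CPM with a prior count of 2, which draws it towards 1, and ratios of 2 genes of different length are compared here only between libraries. It was 0.465, 0.36 and 0.746 in the Sham libraries and 5.93, 5.36 and 9.45 in the Model libraries. The rt-PA libraries had ratios of 4.98, 9.69 and 3.21, and those with acupuncture 0.363, 0.34 and 0.35. The Model and rt-PA libraries lay above all others. The mean log2 ratio of the Sham libraries was -1 ± 0.532 and that of the rt-PA+Acu libraries -1.51 ± 0.0456, against 2.74 ± 0.436 for Model and 2.43 ± 0.802 for rt-PA (SD, n = 3). The ratio was 13.4-fold higher in Model than in Sham, and adding acupuncture to rt-PA went with a 15.3-fold lower ratio. By exact permutation, two-sided, p was 0.1 for both, which is as low as groups of 3 can reach. The exact p was 0.5 for rt-PA vs Model and 0.2 for rt-PA+Acu vs Sham.

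**Figure D3:**
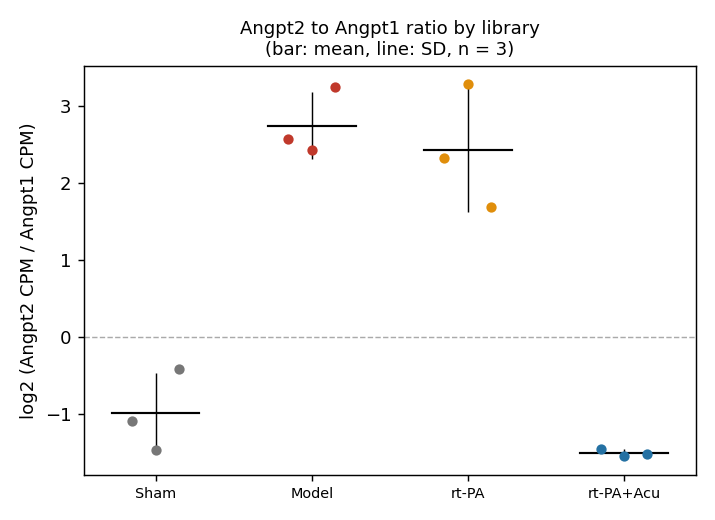
Log2 ratio of Angpt2 to Angpt1 CPM (y axis) in each library by group, with the mean as a bar and the SD as a line. The Model and rt-PA libraries lie above the dashed line at 0 and the Sham and rt-PA+Acu libraries lie below it.

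Adm, the vessel-widening peptide adrenomedullin, was at 0.805, 0.535 and 1.22 CPM in Sham and at 2.52, 4.23 and 8.92 CPM in Model. The groups did not overlap, and Adm rose 6.12-fold (log2 fold change 2.61, SE 0.548, edgeR BH-adjusted p = 0.00429). The highest value was again in Model 3, and without that library the log2 fold change was 1.99 (edgeR BH-adjusted p = 0.00674). In rt-PA, Adm was at 5.97, 3.09 and 5.53 CPM, within the range of Model (edgeR BH-adjusted p = 0.973). In rt-PA+Acu it was at 1.69, 3.75 and 2.24 CPM, which overlapped rt-PA (log2 fold change -0.93, SE 0.397, edgeR BH-adjusted p = 0.107). All rt-PA+Acu libraries were above every Sham library, by 2.99-fold, a difference that did not pass (log2 fold change 1.58, SE 0.464, unadjusted p = 0.00903, edgeR BH-adjusted p = 0.0918).

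Esm1 was nearly silent in Sham and varied most of all ligands across the 12 libraries. It had 0, 0 and 1 counts in the Sham libraries and 8, 22 and 7 counts in the Model libraries. It was too low to be tested for Model vs Sham, and the Model mean was at least 4.16-fold higher than the level of 3 counts per Sham library. Without Model 2 this limit was 2.43-fold. In the rt-PA libraries Esm1 had 143, 11 and 76 counts, or 9.92, 0.79 and 5.61 CPM, so that rt-PA 2 lay within the range of Model and the other two far above it. The difference from Model did not pass (log2 fold change 2.42, SE 0.867, unadjusted p = 0.0242, edgeR BH-adjusted p = 0.422), and the log2 fold change was 1.65 without rt-PA 1 and 3.18 without Model 2. In rt-PA+Acu it had 2, 0 and 1 counts, below every rt-PA library. It fell at least 22.1-fold against rt-PA, counted against 3 counts per rt-PA+Acu library. The fitted log2 fold change was -5.90 (SE 1.18, edgeR BH-adjusted p = 0.00908). Esm1 passed the filter for this test only through its counts in rt-PA, so the filter fixed the direction of the test. Leaving out rt-PA 1 lowered the limit to 13-fold and gave a fitted log2 fold change of -5.13 (edgeR BH-adjusted p = 0.0275). Esm1 is among the genes the study itself picked from these libraries, so its fall is not independent evidence of that choice. Several summed marker lists followed the order of Esm1 among the rt-PA libraries. In rt-PA 1, 2 and 3 the meningeal and fibroblast markers were at 276, 79.3 and 183 CPM. The endothelial markers were at 451, 344 and 351 CPM, and the pericyte and smooth muscle markers at 244, 174 and 205 CPM. The neutrophil and monocyte markers, at 411, 160 and 135 CPM, did not follow this order. In rt-PA+Acu the meningeal and fibroblast markers were at 71.4 to 178 CPM and the endothelial markers at 150 to 168 CPM. The pericyte and smooth muscle markers were at 166 to 187 CPM there, and the neutrophil and monocyte markers at 28.9 to 35.4 CPM. The part of these cells in the Esm1 result was not tested.

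A receptor list held 13 receptors, co-receptors and receptor partners of these ligands, among them the phosphatase Ptprb, and 10 were measured. For Model vs Sham 3 of 10 were DEGs, all higher, against 21.5% of all genes tested (9.43% higher). The median log2 fold change of the 10 was -0.23 against 0.01 over all genes tested. Kdr, the main signalling receptor of Vegfa, was at 15.9, 20.5 and 12.7 CPM in Sham and at 94.7, 121 and 136 CPM in Model. It rose 7.18-fold (SE 0.196 on the log2 scale, edgeR BH-adjusted p = 2.6e-05). Flt4 rose 2.16-fold (edgeR BH-adjusted p = 0.00781) and the co-receptor Nrp2 rose 2.12-fold (edgeR BH-adjusted p = 0.00115). Tek, the receptor of both angiopoietins, was at 49.1, 58.1 and 40.4 CPM in Sham and at 26.6, 28 and 48 CPM in Model, and did not pass (edgeR BH-adjusted p = 0.0917). Calcrl, which binds adrenomedullin together with a RAMP partner, did not pass either (log2 fold change -0.16, edgeR BH-adjusted p = 0.451).

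Between rt-PA and Model 0 of 10 genes on the receptor list were DEGs by edgeR. An unadjusted p under 0.05 was found for 2 of them and for 1284 of all 12941 genes. For rt-PA+Acu vs rt-PA 3 of 10 were DEGs, all lower, against 15.3% of all genes tested (8.16% lower). The median log2 fold change of the 10 was -0.82. Kdr was at 135, 74.4 and 96.1 CPM in rt-PA and at 10.8, 7.85 and 15.4 CPM in rt-PA+Acu. The groups lay far apart, and Kdr fell by 3.16 on the log2 scale (SE 0.306, edgeR BH-adjusted p = 0.00118). Flt4 fell by 2.91 (edgeR BH-adjusted p = 0.0012), and Ptprb, a phosphatase that damps Tek, fell by 1.05 (edgeR BH-adjusted p = 0.00139). Tek fell by 0.92 on the log2 scale and so passed the test but not the fold change of a DEG (edgeR BH-adjusted p = 0.00198). Against Sham, 2 of 10 genes on the receptor list were DEGs in rt-PA+Acu, the receptor Flt4 and the phosphatase Ptprb. Both were lower, against 2.06% of all genes tested as DEGs in either direction. A fold change below 0 was found for 9 of 10. Flt4 was at 5.48, 4.43 and 4.54 CPM in Sham and at 1.69, 1.75 and 0.97 CPM in rt-PA+Acu (log2 fold change -1.72, edgeR BH-adjusted p = 0.0253). Ptprb was at 143, 158 and 156 CPM in Sham and at 65.7, 66.8 and 62.2 CPM in rt-PA+Acu (log2 fold change -1.23, edgeR BH-adjusted p = 0.00188). Kdr did not pass against Sham (edgeR BH-adjusted p = 0.289).

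**Figure D4:**
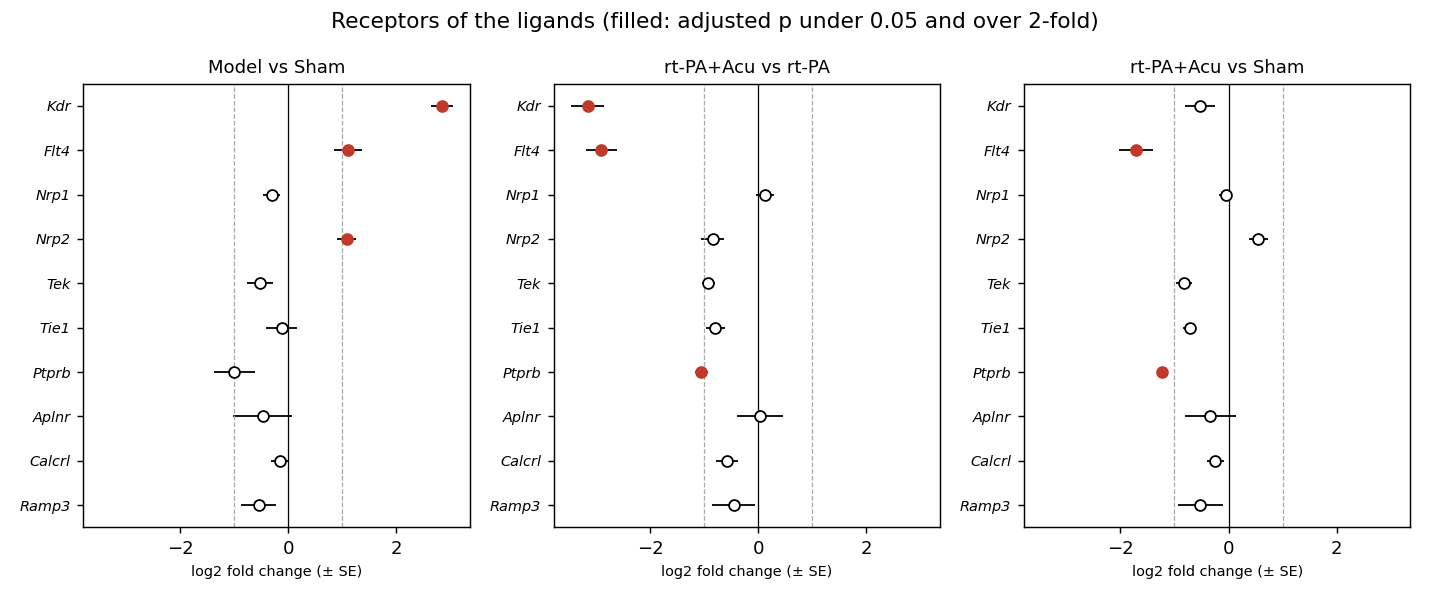
Log2 fold change with its SE (x axis) of the 10 measured genes of the receptor list, Ptprb included, in 3 comparisons, with filled points for DEGs. Kdr is farthest to the right for Model vs Sham, at 2.85, and farthest to the left for rt-PA+Acu vs rt-PA, at -3.16.

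Related vascular ligands and antagonists gave 2 DEGs of 9 tested for Model vs Sham, both higher, against 21.5% of all genes tested. For rt-PA+Acu vs rt-PA they gave 4 of 8, all lower, against 15.3% of all genes tested. Calca, which encodes the calcitonin gene-related peptide that shares the receptor Calcrl with adrenomedullin, was at 0.437 to 0.967 CPM in Sham and at 25.4 to 48.9 CPM in Model. It rose by 5.52 on the log2 scale (edgeR BH-adjusted p = 2.29e-05). Thbs1, a secreted inhibitor of vessel growth, rose by 5.11 in Model (edgeR BH-adjusted p = 7.04e-06) and fell by 4.28 in rt-PA+Acu against rt-PA (edgeR BH-adjusted p = 0.00143). Calca fell by 2.72 in the latter comparison (edgeR BH-adjusted p = 0.0252). Of the other two, Angptl4 fell by 1.63 and Egfl7 fell by 1.45. The median log2 fold change of the list was 0.64 for Model vs Sham and -0.95 for rt-PA+Acu vs rt-PA. None of the 8 tested for rt-PA vs Model was a DEG by edgeR, and 0 had an unadjusted p under 0.05. Against Sham, 0 of 9 were DEGs in rt-PA+Acu. An unadjusted p under 0.05 was found for 5 of them and for 2964 of all 12775 genes.

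Endothelial tip cells are the cells that lead a sprout. For Model vs Sham, where 21.5% of all genes tested were DEGs, 2 of 9 tip cell genes were, both higher. These were Igfbp3, a binding protein of insulin-like growth factors, with a log2 fold change of 2.98, and the adhesion molecule Mcam with 1.25 (edgeR BH-adjusted p = 7.04e-06 and 0.00284). With acupuncture added to rt-PA 4 of 9 were DEGs, all lower, against 15.3% of all genes tested. Dll4, the Notch ligand of tip cells, fell by 2.49 and Igfbp3 fell by 1.95 (edgeR BH-adjusted p = 0.00146 and 0.00794), and the other two were Pdgfb and Mcam. Dll4 was also lower in rt-PA+Acu than in Sham, at 1.77 to 2.84 CPM against 4.82 to 6.04 CPM (log2 fold change -1.26, edgeR BH-adjusted p = 0.0441). The median of the list was 0.91 for Model vs Sham and -1.02 for rt-PA+Acu vs rt-PA. Between rt-PA and Model 0 of 9 were DEGs by edgeR and 0 had an unadjusted p under 0.05.

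HIF subunits and their regulators gave 2 DEGs of 10 for Model vs Sham, 1 in each direction, against 21.5% of all genes tested. Hif1a, the subunit that low oxygen stabilizes as a protein, was at 102, 113 and 107 CPM in Sham and at 378, 369 and 269 CPM in Model. It rose 3.17-fold (edgeR BH-adjusted p = 5.07e-05). Hif3a, a related subunit with inhibitory isoforms, was at 3.71 to 4.54 CPM in Sham and at 0 to 0.661 CPM in Model (log2 fold change -3.47, edgeR BH-adjusted p = 0.00249). In rt-PA+Acu, Hif1a was at 121, 109 and 135 CPM and fell by 1.46 against rt-PA (edgeR BH-adjusted p = 0.00139). It was the 1 DEG of the 9 tested, against 15.3% of all genes tested. Hif3a was below Sham in rt-PA+Acu, at 0.746 to 1.31 CPM (log2 fold change -2.11, edgeR BH-adjusted p = 0.0157). It was the 1 DEG of the 10 tested, against 2.06% of all genes tested. Between rt-PA and Model 0 of 9 were DEGs by edgeR and 0 had an unadjusted p under 0.05. The median of the list was -0.10 for Model vs Sham and -0.19 for rt-PA+Acu vs rt-PA.

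Among the genes known to be induced by hypoxia 13 were analysed. For Model vs Sham 6 of the 13 were DEGs, 5 higher and 1 lower, against 21.5% of all genes tested. By direction alone, 8 of the 13 were higher in Model and 5 were lower. Hmox1, the heme-degrading enzyme heme oxygenase, was at 6.9 to 7.89 CPM in Sham and at 253 to 344 CPM in Model, and rose by 5.41 on the log2 scale (edgeR BH-adjusted p = 3.29e-06). Pfkfb3, which drives glycolysis, rose by 1.93 (edgeR BH-adjusted p = 2.85e-05), and Mxi1, a partner of Max that opposes Myc, fell by 1.42 (edgeR BH-adjusted p = 0.000319). Between rt-PA+Acu and rt-PA 6 of 13 were DEGs, 5 lower and 1 higher, against 15.3% of all genes tested. By direction alone, 6 were higher and 7 lower in rt-PA+Acu. Hmox1 fell by 5.16 and Pfkfb4, a relative of Pfkfb3, fell by 1.43 (edgeR BH-adjusted p = 0.00245 and 0.00264), and Mxi1 rose by 1.05 (edgeR BH-adjusted p = 0.00487). Within rt-PA+Acu, library 3 was highest for Hmox1 and Pfkfb3, with Hmox1 at 25.1 CPM against 5.23 and 6.46 CPM and Pfkfb3 at 76.3 CPM against 39.6 and 43.8 CPM. Between rt-PA and Model 0 of 13 were DEGs by edgeR, and 1 had an unadjusted p under 0.05, against 1284 of all 12941 genes. For rt-PA+Acu vs Sham 0 of 13 were DEGs, and 3 had an unadjusted p under 0.05, against 2964 of all 12775 genes. By median, the 13 genes stood at 0.51 for Model vs Sham and -0.17 for rt-PA+Acu vs rt-PA, against 0.01 and -0.0027 over all genes tested.

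Markers of the cells that make or receive these ligands moved as well. The sum of 7 endothelial markers was 238 to 254 CPM in the Sham libraries and 196 to 380 CPM in the Model libraries. With rt-PA alone it was 344 to 451 CPM, and with acupuncture 150 to 168 CPM. Each of these markers had counts. Of all genes tested, 21.5% were DEGs for Model vs Sham, 15.3% for rt-PA+Acu vs rt-PA and 2.06% for rt-PA+Acu vs Sham. For Model vs Sham 2 of the 7 were DEGs, Emcn and Sox17, both lower. Between rt-PA+Acu and rt-PA all 7 had a fold change below 0 and 5 were DEGs, among them Pecam1 (log2 fold change -1.90) and Cdh5 (log2 fold change -1.61), and against Sham all 7 were again below 0 and 3 were DEGs. The 8 pericyte and smooth muscle markers summed to 303 to 334 CPM in Sham and to 155 to 244 CPM in all other groups, so that they lay below Sham in each group with a clot. Neutrophil and monocyte markers summed to 61.1 to 73.8 CPM in the Sham libraries and 91.5 to 145 CPM in the Model libraries. With rt-PA alone they reached 135 to 411 CPM, and with acupuncture 28.9 to 35.4 CPM. Most of each sum was a single gene, Lyz2. It was at 47.5 to 61.2 CPM in Sham, 73.9 to 122 CPM in Model, 101 to 292 CPM in rt-PA and 20.9 to 29.5 CPM in rt-PA+Acu. Of 8 astrocyte markers, 7 were DEGs for Model vs Sham, 6 lower and Gfap higher, with a median log2 fold change of -1.54. With acupuncture added to rt-PA 5 of the 8 were DEGs, all higher, with a median of 1.15. Of 10 markers of cortical neurons 4 were lower DEGs for Model vs Sham (median -0.83) and 4 were higher DEGs for rt-PA+Acu vs rt-PA (median 0.89). The part of these cells in the changes of the ligands was not tested.

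When libraries were scaled by the endothelial markers, the median over all genes moved to 0.33 for Model vs Sham, -0.52 for rt-PA vs Model, 1.18 for rt-PA+Acu vs rt-PA and 1.00 for rt-PA+Acu vs Sham. On this scale the log2 fold change of Angpt2 was 2.76 for Model vs Sham and -2.13 for rt-PA+Acu vs rt-PA, and that of Esm1 was -4.68 in the latter. The endothelial markers that set this scale were themselves lower with acupuncture. The part of endothelial cell number in these changes was not tested. The log2 fold change of Angpt1 in Model was -1.01 on this scale and no longer passed (edgeR BH-adjusted p = 0.079). Vegfa, at -0.20 for rt-PA+Acu vs rt-PA on the usual scale, was at 1.00 relative to endothelial markers.

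**Figure D5:**
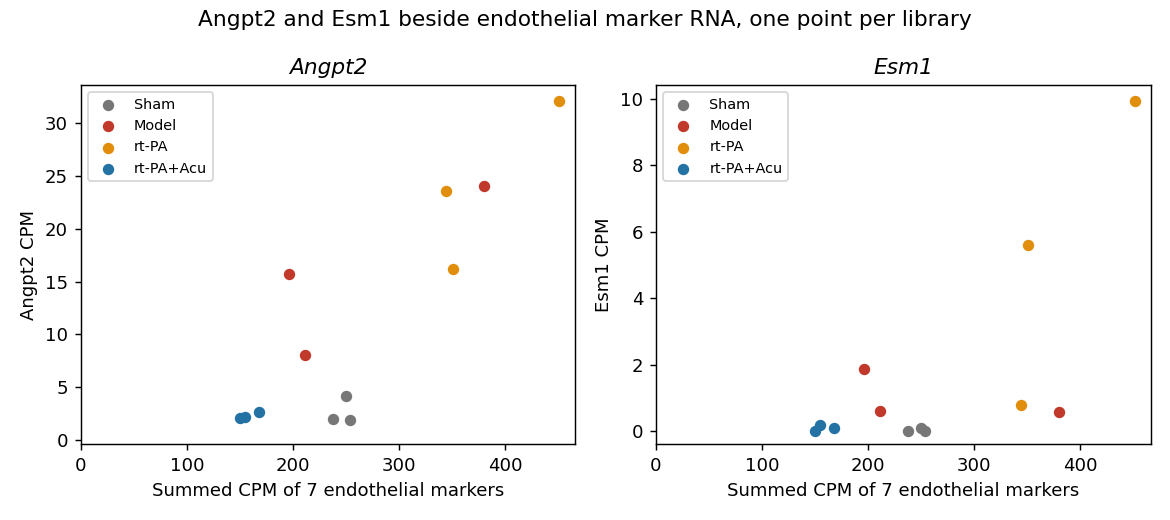
Angpt2 and Esm1 in CPM (y axes) against the summed CPM of 7 endothelial markers (x axis), one point per library, coloured by group. The rt-PA+Acu libraries sit at the lowest marker sums, 150 to 168 CPM. In Model 1, 2 and 3, Angpt2 is at 8.02, 15.7 and 24 CPM at marker sums of 211, 196 and 380 CPM.

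Ranked by the SD of log2 CPM over the 12 libraries, Esm1 (2.05), Angpt2 (1.58) and Adm (1.12) varied most and Vegfa (0.36) least. The genes whose pattern was nearest to each were found by the root mean square difference of centred log2 CPM over all 12 libraries among 12744 genes. For Angpt2 they were Cd93 (0.404), Ecscr (0.452) and Thbd (0.461). Cd93, an endothelial surface receptor, was at 13.3 to 18.6 CPM in the Sham libraries and 50.9 to 98.8 CPM in the Model libraries, against 74.3 to 163 CPM after rt-PA alone and 13.2 to 20.2 CPM with acupuncture. For Adm they included Medag (0.472) and Abca17 (0.507). Medag, named for its part in fat cell formation, was at 18.3 to 19.9 CPM in Sham and at 19.3 to 40.6 CPM in rt-PA+Acu, and these groups overlapped. For Esm1 they were Lox (0.726), Cxcr2 (0.813) and Mcemp1 (0.839), at larger distances. Lox, which crosslinks collagen, had 218, 28 and 186 counts in the rt-PA libraries, the same order as Esm1. Cxcr2, a chemokine receptor of neutrophils, had 212, 66 and 56 counts there and was also on the neutrophil and monocyte list.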

How the data were processed

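Poly(A) RNA of rat cerebral cortex was sequenced from 12 libraries as strand-marked, paired-end reads. The authors made the deposited raw counts per gene symbol with STAR 2.7.10a on mRatBN7.2 and Salmon 1.9.0, and their processing notes also name featureCounts 2.0.1. The annotation release, the strand setting, the use of molecular identifiers in counting, and how Salmon estimates became whole numbers are not given in the sources used here. Limits from counts therefore cover counting error only.

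Counts were analysed as deposited in R 4.3.3 with edgeR 4.0.16 (TMM, filterByExpr, quasi-likelihood test), each pair of groups on its own 6 libraries, with Benjamini-Hochberg adjustment over all genes tested. DEGs needed an adjusted p below 0.05 and a log2 change beyond 1. The SE is the log2 fold change divided by the square root of the F statistic. DESeq2 1.42.0, the tool of the study, was an alternative. A group with at most 3 counts in every library was set to 3 counts per library for a bound. The Angpt2 to Angpt1 ratio was compared by exact two-sided permutation. Scripts were tested on simulated data. The figures come from matplotlib 3.10.9 under Python 3.11.15.

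The ligands and gene lists were chosen with earlier results of these data known. Named genes are the ligands, the 2 DEGs that rose most and the 2 that fell most per list and comparison (at least 1 CPM in one group), and the 3 genes nearest in pattern to each of the 3 most variable ligands. Beyond this rule, Nrp2, Tek, Ptprb, Calcrl, Angptl4, Egfl7, Pdgfb and the cell markers, and Kdr and Mcam in comparisons where the rule does not pick them, were named after their values were seen. Libraries come from samples labelled as separate, and p-values measure the spread between them. Of 9 promoter entries, 2 belonged to ligands without a count and 1 was a further entry of Vegfa. A few genes that the lists or this rule would hold are not reported here.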

Additional observations from a re-analysis of the deposited data

How the results depend on the processing

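Among 400 alternative values of single ligands 8 changed their standing as a DEG (1 reversed, 1 lost and 6 gained), each under scaling by endothelial markers, which moves the median of all genes as given above. For rt-PA+Acu vs rt-PA that median was 1.18. There Vegfa turned from -0.20 to 1.00, below the median, and Vegfb (1.91), Vegfc (1.79), Pgf (1.40) and Angpt1 (1.83) became higher DEGs. For rt-PA+Acu vs Sham the median was 1.00, and Angpt1 (1.37) and Adm (2.54) became higher DEGs. Vegfa (turned from -0.21 to 0.77) and Vegfc (0.84) also passed against Sham, below the median and short of the fold change of a DEG. Angpt1 in Model no longer passed. The share of all genes that were DEGs on this scale is not given here, so these gains are not read as changes of the ligands. With at least 10 counts in every library, 3 ligands were DEGs for Model vs Sham, because Adm was not tested, and 1 for rt-PA+Acu vs rt-PA, because Esm1 was not tested. Over all genes this filter gave 2253 and 1657 DEGs in these comparisons. Esm1 was a DEG for Model vs Sham by DESeq2 (log2 fold change 5.12, adjusted p = 0.00248), without a filter (4.77, edgeR adjusted p = 0.00613) and in a fit over all 12 libraries (4.78, edgeR adjusted p = 0.0144). With 1 library left out, the log2 fold change of Esm1 for rt-PA+Acu vs rt-PA ranged from -6.78 without rt-PA+Acu 1 to -5.13 without rt-PA 1. Scaled by endothelial markers it was -4.68. Over all genes, DEGs without a fold change threshold were 6951 for Model vs Sham, 4522 for rt-PA+Acu vs rt-PA and 651 for rt-PA+Acu vs Sham, against 2765, 1993 and 263. For rt-PA vs Model there were 72 by DESeq2, 2 in the fit over all 12 libraries and 0 to 3 with 1 library left out (3 without Model 3, 1 without rt-PA 1 and 2 without rt-PA 3). For rt-PA+Acu vs Sham there were 426 by DESeq2 and 82 to 359 with 1 library left out (146, 82 and 133 without Sham 1, 2 and 3). With the replicate number as a block (replicate block), 4, 0, 2 and 0 ligands were DEGs in the 4 comparisons in the order above. Over all genes there were 2756, 0, 1862 and 194 DEGs with this block. Vegfb for rt-PA+Acu vs rt-PA no longer passed (edgeR adjusted p = 0.0502). The correlation of same-numbered libraries ranged from -0.144 to 0.163, and for Model vs Sham each library matched its own number best. The labels do not say whether same-numbered libraries belong together, and these values cannot decide it. Ligands with few counts, Pgf, Vegfc and Esm1 above all, limit the depth at which differences could be seen.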
